A study of Marmota monax with 203 samples.

Results

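This account follows 8 genes of B cells and plasma cells in woodchuck livers chronically infected with woodchuck hepatitis virus (WHV): CD79A, CD79B, MS4A1, PAX5, TNFRSF17, MZB1, POU2AF1 and TNFSF13B. They were named by symbol, not by any measured value, and 7 of the 8 were measured, among 17587 genes in all. PAX5 was not analysed here. Woodchucks born in captivity were infected as newborns with WHV strain WHV7-11, which models mother-to-child transmission of hepatitis B virus, and as adults received recombinant woodchuck interferon-alpha (wIFN-α) or placebo by subcutaneous injection 3 times a week for 15 weeks. The wIFN-α dose was 20 μg per animal for the first 7 weeks and 100 μg for the next 8 weeks. Poly(A) RNA of liver biopsies was sequenced before treatment (week -3), at weeks 0, 3, 7, 11 and 15 on treatment, each 6 h after a dose, and at weeks 19 and 23 of follow-up. Weeks are counted from 0 here, from 1 in the labels, so that label week 16 is week 15. Infection was given within days of birth and was shown to be chronic about a year later, while the age at the first dose was not given in the sources used here.

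All animals in both arms carried the chronic infection and both sexes were in each arm at each week. Male M1004 of the wIFN-α arm was left out, because the study judged it likely to have been clearing the virus on its own at the outset. That left 11 wIFN-α and 12 placebo animals at weeks -3 and 0, 9 and 12 at weeks 3 and 7, 8 and 10 at week 11, 8 and 9 at week 15, 6 and 5 at week 19, and 6 and 9 at week 23. The same animals recurred from week to week, and the same placebo animals were the controls throughout.

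B cells recognise antigen through an immunoglobulin that is held at the cell surface with the signalling chains CD79A and CD79B. MS4A1 (CD20) marks B cells from their late development until they become antibody-secreting cells, PAX5 is the transcription factor that keeps B cell identity, and POU2AF1 (OBF-1) is a coactivator of immunoglobulin gene transcription. Plasma cells lose CD20 and make large amounts of antibody: MZB1 is a chaperone of their endoplasmic reticulum that aids immunoglobulin assembly, and TNFRSF17 (BCMA) is a survival receptor for the cytokines BAFF and APRIL. TNFSF13B encodes BAFF itself, which is made mostly by myeloid and stromal cells rather than by B cells, is needed for the survival of mature B cells and is known to be induced by interferons. A healthy liver holds few B cells, and chronic viral hepatitis can bring B cells and plasma cells into portal tracts.

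Levels are given as CPM, the gene's read count scaled to 1000000 reads of the biopsy, with library sizes adjusted by TMM. The 149 biopsies held 12072840 to 84805845 reads on woodchuck genes. The 7 genes were sparse, with a median per biopsy of 186 reads for POU2AF1, 99 for CD79A, 87 for MZB1, 58 for TNFSF13B, 46 for CD79B, 24 for MS4A1 and 3 for TNFRSF17. In 3 biopsies, F1016 and F1018 at week -3 and F1021 at week 3, skeletal muscle transcripts (20 genes) took 11.7% to 13.9% of the reads, while the other 146 biopsies had a median share of 0.0419% and a maximum of 7.6%. In the biopsy of F1013 at week 3, the interferon-induced gene MX1 was at 689 CPM, within the placebo range of 170 to 758 CPM and below the 4647 to 7833 CPM of the other 8 wIFN-α animals, so this biopsy went against its label. In that of placebo animal M1008 at week 15, the 2 sequencing runs disagreed far beyond counting noise (chi-square per degree of freedom 130.9). The runs of 2 wIFN-α biopsies also disagreed, those of F1022 at week 19 (29.9) and M1002 at week -3 (14.7). No other biopsy was above 4.60. F1022 and M1002 were not among the 5 biopsies treated as doubtful below. Both runs of M1008 gave TNFSF13B at about the same unscaled level, 5.01 and 4.73 CPM, but MZB1 at 3.29 and 1.10 CPM.

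Before treatment the levels, compared per kilobase of gene model, ran from POU2AF1 at the top to TNFRSF17 at the bottom. At week -3, over 23 animals of both arms, POU2AF1 was at 2.54 ± 1.085 CPM per kilobase (SD), CD79A at 2.18 ± 1.02 and MZB1 at 2.12 ± 1.06. These first 3 did not differ beyond their spread: POU2AF1 was above CD79A in 14 of 23 animals, and CD79A above MZB1 in 11 of 23. CD79B followed at 1.28 ± 0.388 CPM per kilobase, below MZB1 in 19 of 23 animals, and TNFSF13B at 0.826 ± 0.293, below CD79B in 19 of 23. MS4A1, at 0.189 ± 0.107, was below TNFSF13B in all 23 animals. TNFRSF17 was lowest at 0.0949 ± 0.0816 CPM per kilobase, and below MS4A1 in 21 of 23 animals. The muscle-rich biopsy F1018 had the lowest CD79A, CD79B, MS4A1, POU2AF1 and TNFSF13B levels of the 23, with MS4A1 at 0.0389 CPM. The lowest summed level of hepatocyte markers at this week was 394 CPM in placebo and 227.5 CPM in wIFN-α animals. The medians were 137800 and 135900 CPM. Biopsies that held so little hepatocyte RNA were kept in the levels above.

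**Figure D1:**
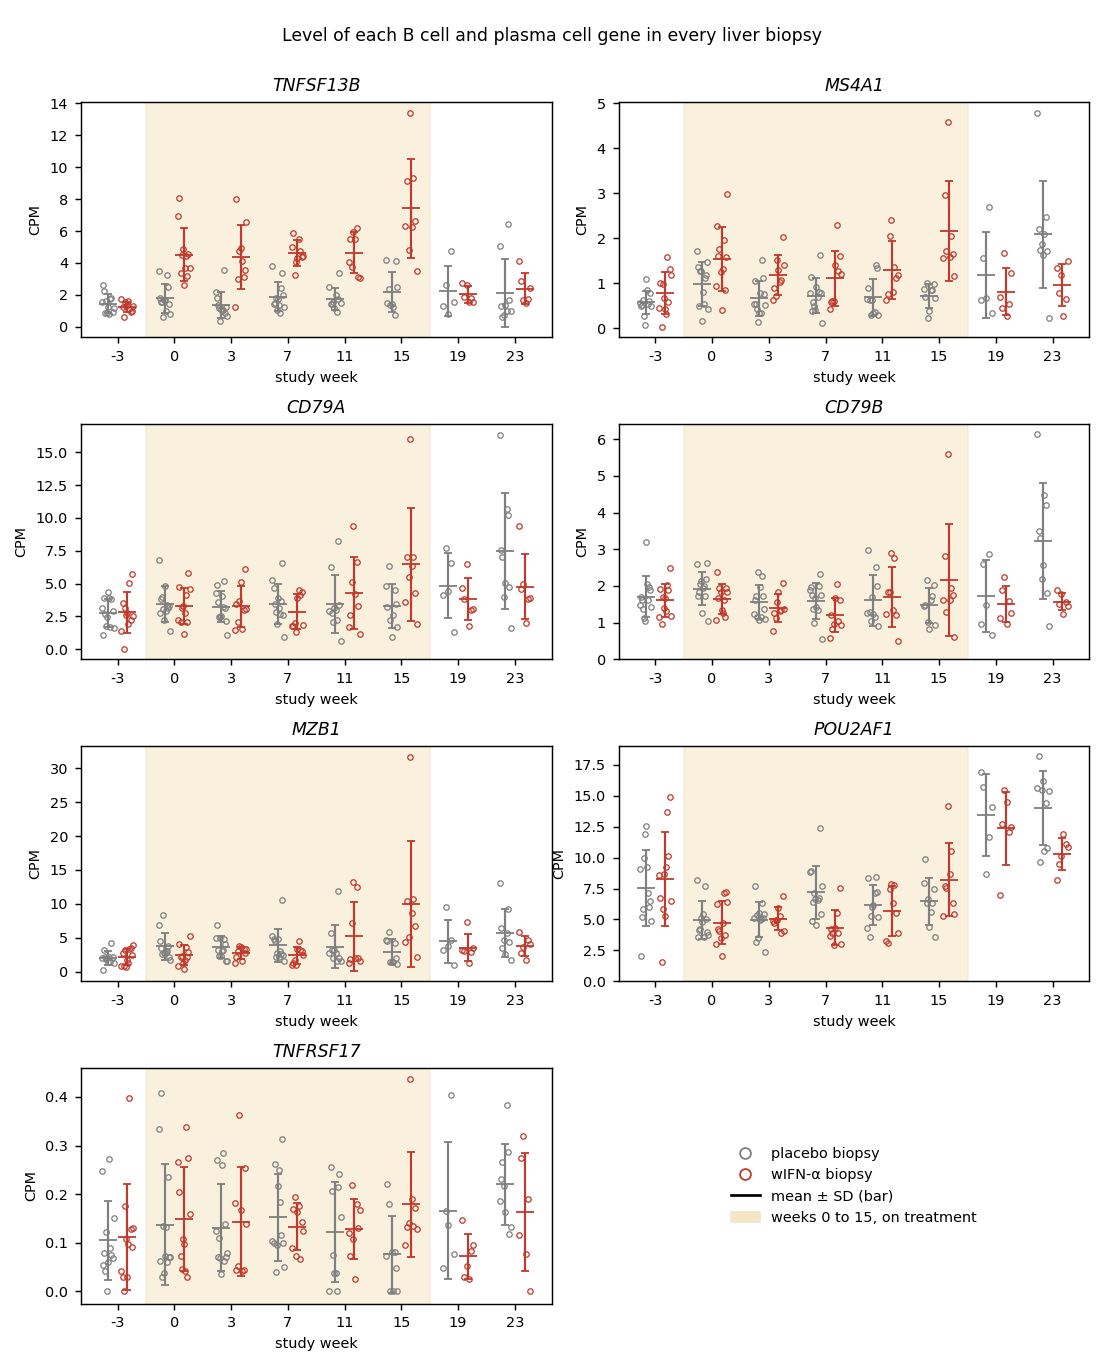
Level of the 7 measured genes (vertical axes, CPM, on a linear scale) in each biopsy by study week (horizontal axes), with placebo in grey and wIFN-α in red; circles are biopsies, bars are the mean ± SD, and shading marks the weeks on treatment. TNFSF13B rose from the first dose, MS4A1, CD79A and MZB1 reached their highest wIFN-α means at week 15, and in placebo animals the means of CD79A, CD79B, MS4A1, TNFRSF17, MZB1 and POU2AF1 were highest at week 23.

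TNFSF13B, the ligand of the group, was the only member called higher in wIFN-α animals at every on-treatment week. A gene was called when its adjusted p was under 0.05 and its fold change above 1.5, by the quasi-likelihood test of edgeR, with p-values adjusted (Benjamini-Hochberg) over all genes tested that week. At week -3 the lowest, median and highest levels were 0.584, 1.27 and 1.75 CPM in wIFN-α animals and 0.816, 1.41 and 2.64 CPM in placebo animals. At week 0, 6 h after the first 20 μg dose, they were 2.61, 4.43 and 8.05 CPM against 0.607, 1.62 and 3.48 CPM. The groups overlapped only at the edge, with 8 of 11 wIFN-α animals above every placebo animal, and the log2 fold change was 1.35 ± 0.26 (SE, adjusted p = 0.000202), or 2.54-fold.

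At week 3 the TNFSF13B levels were 1.24, 4.13 and 8.00 CPM in wIFN-α animals against 0.340, 1.15 and 3.55 CPM in placebo animals, and the log2 fold change was 1.67 ± 0.32. The lowest of these wIFN-α values was that of F1013, the biopsy without an MX1 response. After the step to 100 μg, at week 7, all 9 wIFN-α animals lay between 3.22 and 5.90 CPM and 8 of them were above every placebo animal (log2 fold change 1.31 ± 0.22). At week 11 they lay between 3.03 and 6.18 CPM, 6 of 8 above every placebo animal (1.40 ± 0.23). At week 15 the levels were 3.52, 6.46 and 13.4 CPM against 0.737, 1.47 and 4.21 CPM, with 7 of 8 wIFN-α animals above every placebo animal and a log2 fold change of 1.79 ± 0.34 (adjusted p = 0.0004), or 3.47-fold. The call held at all 5 weeks under every alternative analysis and without any single animal. Within the 7 sequencing lanes, over weeks 0 to 15, the difference was above 0 in all 7, from 0.73 to 1.37 on the log2(CPM + 1) scale. The study placed TNFSF13B in a set of genes induced at both doses, chosen on these same biopsies, so that its direction here is not independent evidence.

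MS4A1, the B cell surface marker, separated the arms completely at week 15. Its lowest, median and highest levels there were 1.16, 1.69 and 4.59 CPM in wIFN-α animals and 0.237, 0.846 and 1.01 CPM in placebo animals, so that all 8 wIFN-α animals lay above all 9 placebo animals. The log2 fold change was 1.58 ± 0.30 (adjusted p = 0.000454), or 2.99-fold. Such a separation was not particular to MS4A1. RELB, BLNK, CD22, CD40, IRF4, FCRL5 and CD3E, from the lists below, also had all 8 wIFN-α animals above every placebo animal. How many of all genes tested did so was not counted, while 13.4% of them were called higher that week.

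Earlier, the MS4A1 estimates were smaller. Before any dose the log2 fold change stood at 0.44 ± 0.37, and then at 0.64 ± 0.32 (week 0), 0.78 ± 0.30 (week 3, adjusted p = 0.0754) and 0.62 ± 0.34 (week 7), none of them called. The value of week 3 passed with sex as a term (0.84, adjusted p = 0.0431), without the 5 doubtful biopsies (0.79, adjusted p = 0.0495), and without F1013 (adjusted p = 0.0498) or M1008 (adjusted p = 0.0225). At week 11 levels ran from 0.638 to 2.42 CPM in wIFN-α animals and from 0.297 to 1.41 CPM in placebo animals, and the difference of 0.90 ± 0.35 was called with an adjusted p of 0.0486. That call was lost in 6 of 13 alternatives and on leaving out any 1 of 13 of the 18 animals (adjusted p of 0.0532 to 0.125). The 13 were M1001, M1011, F1015, F1016, F1017, F1019, F1021 and F1024 of the placebo arm and M1002, M1003, M1012, F1018 and F1020 of the wIFN-α arm.

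With animal as a block, so that each week was measured as a change from week -3, the MS4A1 difference was 0.29 ± 0.47 at week 11 (adjusted p = 0.705) and 1.04 ± 0.47 at week 15 (adjusted p = 0.0883), and neither was called. Under this pairing the difference at week -3, 0.44 ± 0.37 and not called, was taken off each later week. The muscle-rich biopsies F1016 and F1018 were part of that week. Without F1018 the difference at week -3 was larger, 0.57 ± 0.31, and without F1016 it was 0.42 ± 0.39. Whether the difference at week -3 accounts for the lost calls was not tested. The study placed MS4A1, too, in a set chosen on these biopsies, that of genes induced at the high dose.

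The signalling chains CD79A and CD79B differed little between the arms until week 15. CD79A was at 1.89, 5.91 and 16.1 CPM in wIFN-α animals at week 15 against 0.927, 3.20 and 6.36 CPM in placebo animals, with 3 of 8 wIFN-α animals above every placebo animal. Its log2 fold change of 0.99 ± 0.38 was called with an adjusted p of 0.0464. Of the 14 alternatives tried, 7 lost this call, and so did leaving out any 1 of 12 of the 17 animals, namely M1001, M1005, M1008, M1011, F1016, F1019 and F1021 of the placebo arm and M1002, F1014, F1018, F1020 and F1022 of the wIFN-α arm (adjusted p of 0.0513 to 0.149). With animal as a block it was 1.01 ± 0.44 (adjusted p = 0.0771).

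CD79B was called at no week, and its estimate for week 15 was 0.57 ± 0.33 on the log2 scale (adjusted p = 0.183). Its wIFN-α levels then ran from 0.602 to 5.60 CPM, both below and above the placebo range of 0.826 to 2.17 CPM. From week -3 to week 11 the log2 fold changes of CD79A lay between -0.28 and 0.31, and those of CD79B between -0.38 and 0.10. The pair nevertheless varied together: across all 149 biopsies Pearson's r of their log2(CPM + 1) levels was 0.80, and CD79A was the gene most like CD79B among 13432 genes with a median of at least 1 CPM.

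POU2AF1, the immunoglobulin gene coactivator, was the one member called lower, and at a single week. At week 7, 6 h after the first 100 μg dose, its levels were 2.96, 3.93 and 7.56 CPM in wIFN-α animals and 4.57, 6.68 and 12.4 CPM in placebo animals, and 7 of 9 wIFN-α animals were below every placebo animal. The log2 fold change was -0.72 ± 0.18 (adjusted p = 0.00224). It was not called in either direction at the other weeks on treatment, where the estimates were -0.06 (week 0), 0.02 (week 3), -0.11 (week 11) and 0.37 (week 15). The level of POU2AF1 moved more with the week than with the arm. In placebo animals the mean was 4.96 ± 1.52 CPM at week 0 (SD, n = 12), 7.19 ± 2.12 at week 7 (n = 12), 13.4 ± 3.3 at week 19 (n = 5) and 14.0 ± 3.0 at week 23 (n = 9).

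MZB1, the plasma cell chaperone, had negative estimates first and was called higher at the end of treatment. On the log2 scale these were -0.61 ± 0.33 (week 0), -0.37 ± 0.26 (week 3) and -0.67 ± 0.33 (week 7, adjusted p = 0.0988), none of them called. Without wIFN-α animal M1002 the value of week 7 was -0.84, with an adjusted p of 0.049. At week 11 the wIFN-α animals spread widely, with 2 of 8 above every placebo animal, and the highest values were 13.2 CPM in F1020 and 12.5 CPM in M1002 against a median of 2.06 CPM.

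At week 15 the lowest, median and highest MZB1 levels were 2.23, 7.68 and 31.7 CPM in wIFN-α animals and 1.2, 2.10 and 5.81 CPM in placebo animals. In all, 5 of 8 wIFN-α animals exceeded every placebo animal, and the log2 fold change of 1.76 ± 0.47 was called (adjusted p = 0.00589), or 3.38-fold. F1020 held the highest wIFN-α value of all 7 genes at this week. Without F1020 the mean of MZB1 in the other 7 wIFN-α animals was 6.88 ± 3.19 CPM, against 9.98 ± 9.24 CPM with it, and the call remained, as it did without any other single animal (adjusted p of 0.00252 to 0.0186) and with animal as a block (1.57 ± 0.52, adjusted p = 0.0151).

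**Figure D2:**
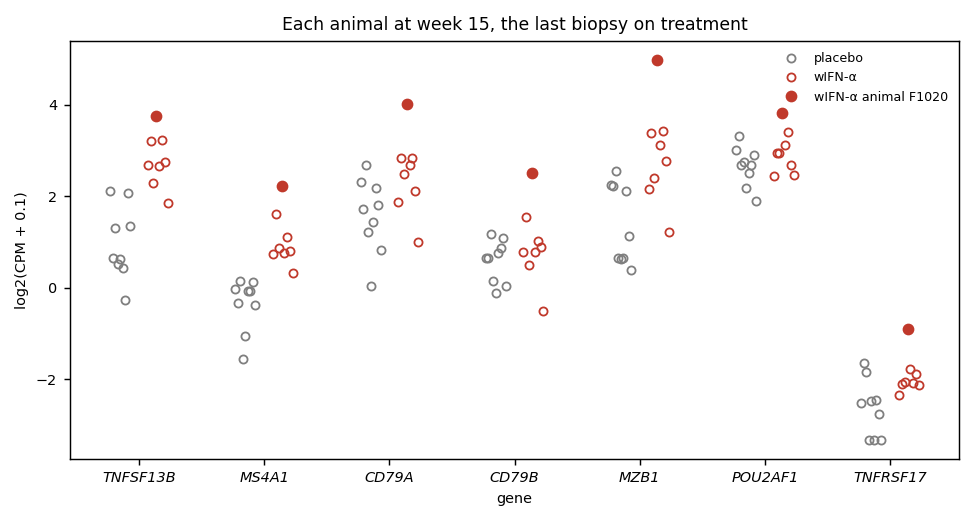
Level of each gene at week 15 (vertical axis, log2(CPM + 0.1)) in the 9 placebo animals (grey) and the 8 wIFN-α animals (red), with 1 circle per animal and wIFN-α animal F1020 filled. Of these 7 genes, only MS4A1 shows no overlap between the arms, and F1020 is the highest circle for all 7.

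TNFRSF17, the plasma cell receptor of BAFF and APRIL, was too sparse for the weekly tests. It had 3 or fewer reads in 78 of 149 biopsies and none in 8, where a count of 0 allows up to 3 reads, or 0.0889 to 0.200 CPM in those libraries (counting error only). At week 15 its mean was 0.179 ± 0.108 CPM in wIFN-α animals (SD, n = 8), with 3 to 10 reads each, and 0.0761 ± 0.0791 CPM in placebo animals (n = 9), with 0 to 6 reads each. The difference on the log2(CPM + 0.1) scale was 0.72, with p = 0.0169 in a two-sided exact permutation test and an adjusted p of 0.135 over the 8 weeks, so that it did not pass the threshold. At the other weeks the adjusted p of this permutation test (100000 resamples at weeks -3 and 0), which was chosen after the low counts were seen, was 0.572 or higher.

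**Figure D3:**
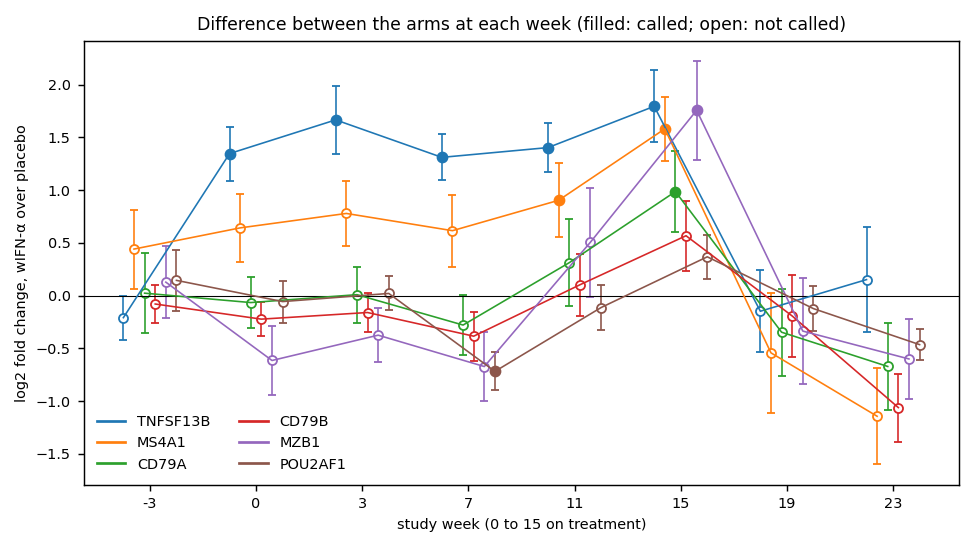
Log2 fold change of wIFN-α over placebo (vertical axis, ± SE from edgeR) by study week (horizontal axis) for the 6 genes tested each week, with filled circles for values that were called and open circles for the others. TNFSF13B is called at weeks 0 to 15, POU2AF1 below 0 at week 7, MS4A1 at weeks 11 and 15, and MZB1 and CD79A at week 15.

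Of the 6 members tested each week, 1 was called higher at week 0, where 10.3% of all genes tested were. The count was 1 at week 3 (7.24% of all genes), 1 at week 7 (11.4%), 2 at week 11 (12.6%) and 4 at week 15 (13.4%). At week 7, 1 member was called lower, against 10.1% of all genes. The count of 4 at week 15 was the highest share against its background. It fell to 3 in the alternatives that took the call from CD79A alone, and to 2 with animal as a block, where MS4A1 lost its call too. The 6 members had a median log2 fold change of -0.06 (week 0), 0.02 (week 3), -0.33 (week 7), 0.41 (week 11) and 1.28 (week 15), while that of all genes tested stayed between -0.04 and -0.01. In bulk tissue, more cells of a type and more RNA per cell cannot be told apart, and neither could be measured here.

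To ask whether the effect differed between doses, the wIFN-α effect at week 15 was set against the mean of weeks 0 and 3 in one fit of all weeks. Of the 7 members, MZB1 alone passed, where 1.93% of 16232 genes had a larger effect at week 15: its effect was larger by 2.22 ± 0.50 on the log2 scale (adjusted p = 0.00227). That fit did not pair biopsies by animal. With animal as a block the MZB1 difference was 2.14 ± 0.45 (adjusted p = 0.000656). MZB1 stood above the animal's own mean of weeks 0 and 3 in 7 of the 8 wIFN-α animals sampled at week 15. With weeks 7, 11 and 15 together as the high dose the difference was 1.01 and did not pass (adjusted p = 0.0682), the estimate at week 7 being negative. CD79A (0.99 ± 0.44, adjusted p = 0.262), CD79B (0.73 ± 0.31, adjusted p = 0.22), MS4A1 (0.84 ± 0.47, adjusted p = 0.417) and TNFRSF17 (1.03 ± 0.60, adjusted p = 0.458) did not pass. TNFSF13B differed by 0.27 ± 0.38 (adjusted p = 0.842). Dose and time on treatment cannot be told apart in this design, since all animals moved to 100 μg together.

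The effect at week 15 was then compared with that at week 19, after dosing had ended, where 10.2% of all genes had a larger effect at week 15. At week 19 the TNFSF13B levels of the 6 wIFN-α animals, 1.54 to 2.77 CPM, lay within those of the 5 placebo animals, which were 0.814, 1.32, 1.58, 2.63 and 4.76 CPM. All 6 wIFN-α animals sampled at both weeks had fallen. The difference between the effects was 1.92 ± 0.52 (adjusted p = 0.00472), which held without any single animal. This fit did not pair biopsies by animal. With animal as a block the difference was 1.77 ± 0.38 (adjusted p = 0.000175).

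MS4A1 was lower at week 19 than at week 15 in 5 of 6 wIFN-α animals, and its effect differed by 2.09 ± 0.63 (adjusted p = 0.0136). MZB1 differed by 2.06 ± 0.67 (adjusted p = 0.0226), with a fall in 4 of 6 animals. TNFRSF17 differed by 2.35 ± 0.84 (adjusted p = 0.0429), a fitted value that rests on few reads, with a fall in 5 of 6. These 3 calls leaned on single animals. Without placebo animal M1008 none of them passed (adjusted p = 0.109 for MS4A1, 0.0531 for MZB1 and 0.291 for TNFRSF17), and without placebo animal F1019 none did either (0.0517, 0.161 and 0.0858). M1008 had the highest MS4A1 level of the 5 placebo animals at week 19, 2.70 CPM, and F1019 the highest MZB1 level, 9.51 CPM. F1022, whose runs of week 19 disagreed, held the lowest wIFN-α levels of MS4A1 (0.283 CPM) and MZB1 (1.26 CPM) there. Both of these calls held without F1022. Without F1020, which died before week 19, MZB1 (adjusted p = 0.116) and TNFRSF17 (0.102) did not pass, and leaving out 7 further animals in turn (M1001, M1003, M1005, F1014, F1018, F1021 and F1022) also took the call from TNFRSF17. CD79A (1.30 ± 0.60, adjusted p = 0.133), CD79B (0.73 ± 0.42) and POU2AF1 (0.46 ± 0.37) did not pass.

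No member was called before treatment or during follow-up. By edgeR 0% of all genes were called in either direction at each of weeks -3, 19 and 23, although 130, 1859 and 2416 genes had an unadjusted p under 0.05, and DESeq2 called 0, 94 and 53 genes, none of them a member. At week 23 the estimates of 5 of the 6 members were below 0. Those of 3 members had an unadjusted p under 0.05: CD79B (-1.06 ± 0.32, adjusted p = 0.256), MS4A1 (-1.14 ± 0.46, adjusted p = 0.276) and POU2AF1 (-0.46 ± 0.15, adjusted p = 0.256). CD79B levels were then 1.25, 1.54 and 1.90 CPM in wIFN-α animals against 0.921, 3.30 and 6.13 CPM in placebo animals, so that the wIFN-α animals lay within the lower part of the placebo range. In one fit of all weeks, which pools the spread, CD79B passed at week 23 (-1.04 ± 0.29, adjusted p = 0.027).

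**Figure D4:**
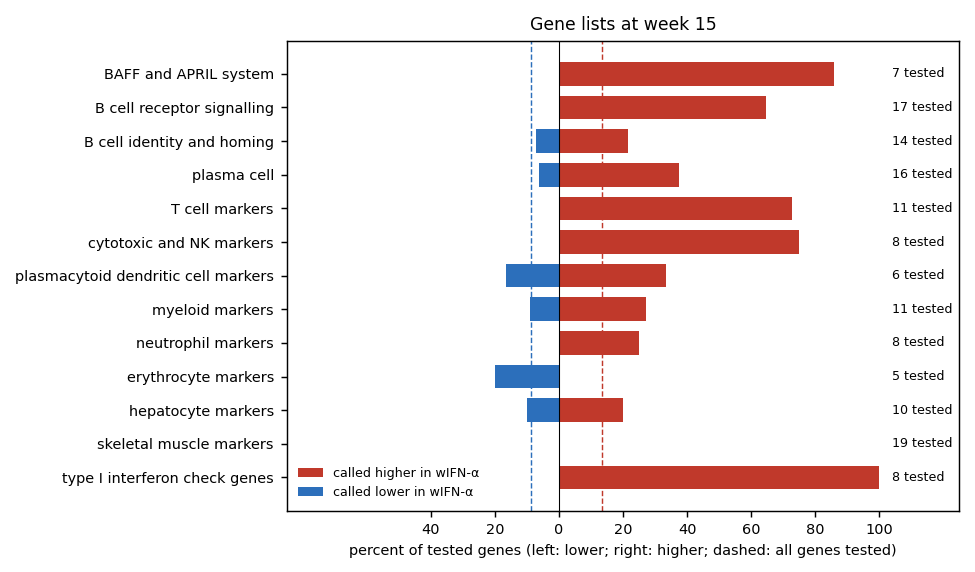
Percent of the tested genes of each list (horizontal axis) that were called higher (red, to the right) or lower (blue, to the left) in wIFN-α animals at week 15, with dashed lines at the 13.4% and 8.83% of all genes called higher and lower. The BAFF and APRIL system (6 of 7), B cell receptor signalling (11 of 17), T cell (8 of 11) and cytotoxic (6 of 8) lists lie far to the right of the dashed line.

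The wider B cell pathways were read at week 15 from lists of textbook genes, which hold none of the 8 members. Of the BAFF and APRIL system, 6 of 7 tested genes were called higher and none lower, with a median log2 fold change of 0.82. Earlier, 5 of 7 had been called higher at week 0, 2 at week 3, and 6 at each of weeks 7 and 11. In addition, 1 was called lower at each of weeks 0, 3 and 7. The second ligand of BCMA, TNFSF13 (APRIL), was at 37.9 ± 8.9 CPM in wIFN-α animals (SD, n = 8) and 17.3 ± 3.5 CPM in placebo animals (n = 9), a log2 fold change of 1.15 ± 0.15 (adjusted p = 8.57e-06). The largest change in the list was that of RELB, a subunit of the non-canonical NF-κB factor that BAFF receptor signalling releases, at 24.8 ± 7.9 against 5.59 ± 1.2 CPM (2.17 ± 0.18), with all 8 wIFN-α animals above every placebo animal. MAP3K14, the kinase NIK of the same pathway (0.90), and TRAF3, the adaptor that holds NIK in check (0.82), also rose. RELB and TNFSF13 were called at all 5 weeks on treatment, as TNFSF13B was.

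Of the B cell receptor signalling list 11 of 17 tested genes were called higher at week 15, where 3 of 17 had been at each of weeks 0, 3 and 7 and 7 of 17 at week 11; 1 was called lower at each of weeks 0, 7 and 11. BLNK, the adaptor that couples SYK to phospholipase C in B cells, was at 20.6 ± 10.02 against 2.33 ± 1.23 CPM, a log2 fold change of 3.15 ± 0.32 (adjusted p = 3.21e-07), and it had been called at every week from week 0, when it was 2.40 ± 0.33. The inhibitory receptor CD22 (1.56 ± 0.23), the adaptor PIK3AP1 (1.23 ± 0.12) and the kinase BLK (1.24 ± 0.36) rose at week 15. CD22 and PIK3AP1 had all 8 wIFN-α animals above every placebo animal, and BLK 2 of 8.

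Of the B cell identity and homing list, with 14 genes tested and a median log2 fold change of 0.16 at week 15, only 3 were called higher and 1 lower. CD40, the receptor of T cell help, rose 1.98 ± 0.29, IKZF3, a lymphoid transcription factor, 1.70 ± 0.42, and the leukocyte tetraspanin CD37 0.98 ± 0.30. BACH2, the transcription factor that holds back plasma cell differentiation, fell by 1.495 on the log2 scale, from 4.91 ± 1.40 CPM in placebo animals to 1.72 ± 0.44 CPM in wIFN-α animals (adjusted p = 9.79e-06). BACH2 was called lower at weeks 3, 7 and 11 as well. Of the plasma cell list 6 of 16 tested genes were called higher and 1 lower, with a median of 0.43. At weeks 0, 3 and 7, 3 of 16 had been called higher and 1 lower, and at week 11, 4 and 1. The summed level of the list at week 15 overlapped between the arms, at 820.7 to 1677 CPM in wIFN-α animals and 722.7 to 1186 CPM in placebo animals. This sum says little about the sparse genes of the list. Over all biopsies the medians of XBP1, SDC1 and TXNDC5 were 428.5, 140.1 and 104.1 CPM. Those of CD38, CD27 and FCRL5 were 1.39, 2.04 and 5.96 CPM. The 4 genes with the largest change, all of them higher, are named here. IRF4, which drives plasma cell differentiation and also acts in T cells (1.71 ± 0.25), and the Fc receptor-like protein FCRL5 (1.87 ± 0.32) had all 8 wIFN-α animals above every placebo animal at week 15, and both were called at all 5 weeks on treatment. The ectoenzyme CD38 (1.90 ± 0.47) and the receptor CD27 (1.504 ± 0.49) were each called higher at week 15, with 4 of 8 wIFN-α animals above every placebo animal. CD38 had also been called higher at week 11, whereas CD27 had been called lower at week 0 (-0.66 ± 0.23, adjusted p = 0.0258).

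Markers of other leukocytes were also higher in wIFN-α animals, some of them from the first dose on. Of the T cell markers 8 of 11 tested were called higher and none lower at week 15, after 7 of 11 at week 11. At each earlier week of treatment only CD3E was called higher, and 1 marker was called lower at week 7. Of all genes 10.3%, 7.24% and 11.4% were called higher at weeks 0, 3 and 7. The summed level of the T cell markers at week 15 was 125.2 to 274 CPM in wIFN-α animals and 50.5 to 99.4 CPM in placebo animals, without overlap. CD3E weighed most in this sum, with a median of 39.9 CPM over all biopsies, followed by CD4 at 14.7 CPM. The sum without CD3E was not computed. CD3E, called at all 5 weeks on treatment, was at 77.9 ± 12.5 against 31.1 ± 4.9 CPM at week 15. CD28 was at 0 reads in 21 of the 149 biopsies, and each of the other 11 markers in at most 2. Of the 8 cytotoxic and NK markers tested, 3 were called higher at week 0, 4 at weeks 3 and 7, and 6 at weeks 11 and 15, with GZMA among them each time. At week 15 they had a summed level of 40.3 to 79.7 against 17.8 to 30.6 CPM. Of the myeloid markers 3 of 11 were called higher and 1 lower, of the neutrophil markers 2 of 8 higher, and of the plasmacytoid dendritic cell markers 2 of 6 higher and 1 lower, with summed levels that overlapped between the arms. Of the hepatocyte markers 2 of 10 were called higher and 1 lower at week 15. Their sum was 66000 to 125300 CPM in wIFN-α animals and 66900 to 96290 CPM in placebo animals. ALB was at 0 in no biopsy, but at week -3 the lowest sum was 394 CPM in placebo and 227.5 CPM in wIFN-α animals. The part of these other cell types in the levels of the members was not tested.

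At week 15, in each arm, the level of the ligand TNFSF13B was set against those of 2 genes across animals. These were the B cell marker MS4A1 and the receptor TNFRSF17. In the 8 wIFN-α animals TNFSF13B and MS4A1 levels on the log2(CPM + 1) scale were correlated, with Pearson's r = 0.90 (exact permutation p = 0.00151, adjusted p = 0.00605 over the 4 relations) and Spearman's rho = 0.81 (exact permutation p = 0.0218, adjusted p = 0.0871). Without M1012 and F1020, the animals with the lowest and the highest TNFSF13B level, r was 0.72 over 6 animals (exact permutation p = 0.126), which did not pass the threshold with the smaller number of animals. TNFSF13B and TNFRSF17 had r = 0.65 (exact permutation p = 0.103, adjusted p = 0.206) and rho = 0.36 (exact permutation p = 0.389). Without the same 2 animals r was -0.13. In the 9 placebo animals r was 0.42 with MS4A1 (exact permutation p = 0.265; rho = 0.42, p = 0.27) and -0.02 with TNFRSF17 (exact permutation p = 0.961; rho = 0). Without M1008 and F1015 these were 0.14 and 0.11.

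Over all 149 biopsies, which share animals and weeks, the 3 genes most like each member were found, as a description only. MZB1 was most like LOC100652743 (r = 0.87), LOC100652818 (0.86) and LOC100653210 (0.86), and CD79A most like LOC100653245 (0.85), IGLL5 (0.85) and LOC100652743 (0.84). IGLL5, an immunoglobulin lambda-like gene whose symbol was assigned by similarity and whose reads may be shared with other light chain loci, was at 491 ± 370 CPM in wIFN-α animals and 223 ± 136 CPM in placebo animals at week 15 (log2 fold change 1.17 ± 0.44, adjusted p = 0.0414). Of the other 4 genes named for MZB1 and CD79A, LOC100652743 (1.43 ± 0.49, adjusted p = 0.027) and LOC100653210 (1.53 ± 0.52, adjusted p = 0.025) were called higher at week 15, and LOC100653245 (1.16 ± 0.47, adjusted p = 0.0564) was not. LOC100652818 was not called at week 15 (0.56 ± 0.57, adjusted p = 0.455) and was called lower at week 7 (-1.19 ± 0.37, adjusted p = 0.0109). TNFSF13B was most like TAPBPL (0.87), CXCL11 (0.85) and PSMB9 (0.85), which act in antigen loading, T cell chemotaxis and the immunoproteasome. MS4A1 was most like SLAMF7 (0.78), EVL (0.76) and PRKCD (0.76). After CD79A, CD79B was most like ATP2A3 (0.75) and HMHA1 (0.73). POU2AF1 was most like ZMYM3 (0.69), ZNF793 (0.66) and PILRA (0.66). ZMYM3, ZNF793 and PILRA were called lower at week 7, as POU2AF1 was, but ZMYM3 was also called lower at week 0 (-0.77) and ZNF793 at weeks 11 (-0.67) and 15 (-0.80), where POU2AF1 was not. TNFRSF17 reached no more than 0.48 with any gene, with CD79A first, followed by POU2F2 and LOC100652986 (both 0.45). Between members, MZB1 and CD79A had r = 0.82, MS4A1 and CD79A 0.74, and POU2AF1 and TNFSF13B -0.07.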

How the data were processed

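Liver biopsy libraries were poly(A)-selected (TruSeq) and sequenced as paired-end reads of 50 nucleotides. The authors mapped them with Bowtie2 to their own woodchuck transcriptome, whose genes carry symbols assigned by similarity to human, mouse and rat transcripts, and counted them with SAMtools; CASAVA, FastQC and DESeq are also named in the submitters' processing notes, and tool versions were not given in the sources used here. The deposited tables hold, per sequencing run, expected counts (118 of 3368023 nonzero entries were not whole, and these were rounded) and RPKM. The RPKM deposited by the authors served only to derive gene model lengths.

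From 203 runs, the runs of each biopsy were summed to 164 biopsies. Of these, 7 of M1004 and 8 from other weeks or undated deaths were left out, and 149 were compared. The row of the virus, with a median of 2.06% of reads, was left out of library sizes and tests. Arms were compared at each of 8 weeks with edgeR 4.0.16 (quasi-likelihood F-test, TMM, filterByExpr), and weeks were compared in one fit of all weeks. Biopsies of one animal at different weeks deviated together over 14333 genes (median r = 0.316 for 450 pairs of the same animal and -0.0305 for 4409 pairs of different animals of one arm; 355 of the 450 were above 0.1), so the animal pairs the samples, as the labels give it. Replicates are separate animals. Alternatives were DESeq2 1.42.0, limma-voom 3.58.1, other filters, scalings and thresholds, sex, sequencing lane and animal as terms, the deepest run, M1004 included, the 5 doubtful biopsies left out, and each animal left out.

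The genes, lists and tests were chosen with earlier results of these data known. Genes named are the members, up to 4 called genes per list at week 15 with the largest change, and the 3 genes most correlated with each member over all biopsies. Correlations used log2(CPM + 1), and 0.1 in place of 1 as an alternative. The scripts were tested on simulated counts.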

Additional observations from a re-analysis of the deposited data

Results flagged for a closer look

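Chance alone flags about 1 in 20 independent groups by Dixon's test, but the groups here shared biopsies across genes. Among 70 groups of 5 to 10 animals, 6 had a highest value far from the others by this test. In 4 of them the value was that of wIFN-α animal F1020 at week 15: CD79A at 16.1 CPM (next 7.02), CD79B at 5.60 CPM (next 2.82), TNFRSF17 at 0.437 CPM (next 0.190) and MZB1 at 31.7 CPM (next 10.7). MS4A1 in placebo animal F1015 at week 23 was at 4.79 CPM (next 2.48), and MZB1 in placebo animal M1005 at week 11 was at 12.0 CPM (next 5.66).

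The wIFN-α effect differed between time points, by the test of the difference, for MZB1 between week 15 and the mean of weeks 0 and 3 (2.22 on the log2 scale). Between week 15 and week 19 it differed for MS4A1 (2.09), MZB1 (2.06), TNFRSF17 (2.35) and TNFSF13B (1.92).

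M1004, the wIFN-α animal left out of the comparisons, was sampled at 7 of the 8 weeks. Scaled by library total, it exceeded every placebo animal of the same week in TNFSF13B at 4 weeks (0, 7, 11 and 15), in CD79A at 3 (weeks -3, 15 and 19), in MZB1 at 2 (9.51 CPM at week 15 and 13.4 CPM at week 19), in CD79B at 1 (week 19), in MS4A1 at 1 (2.01 CPM at week 15) and in TNFRSF17 at 1 (11 reads at week 19). At week 19, after dosing, M1004 held 10.2 CPM of CD79A against 7.98 CPM in the highest placebo animal.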

How the results depend on the processing

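Over the 5 weeks on treatment, 9 member values were called higher and 1 lower. The count of higher calls was 6 with animal as a block, that is, with biopsies paired by animal (MS4A1 at weeks 11 and 15 and CD79A at week 15 were lost), and 7 to 10 on leaving out 1 animal. The lower call was lost with a fold threshold of 2 (0 lower), and 1 to 2 were lower on leaving out 1 animal. Off treatment, 1 member was called in one fit of all weeks, and 0 on leaving out any animal. The dose difference dropped from 1 member to 0 with weeks 7, 11 and 15 as the high dose, and was 1 on leaving out any animal. After withdrawal 4 members differed, 2 with M1004 included, and 1 to 4 on leaving out 1 animal. Under the animal block 3 of 56 single gene values changed their call, all named above; no called value changed sign under any alternative. DESeq2 and RLE scaling changed no call (48 and 62 values). The causes were not tested. MS4A1, at a median of 24 reads, and TNFRSF17, at 3, are limited by depth, and p-values do not cover differences between biopsy sites.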

Other observations

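In placebo animals, 6 of the 7 genes were higher late in the study, and so were summed markers of some other leukocytes. In the 8 placebo animals sampled at both weeks, POU2AF1 rose from 6.48 ± 2.0 CPM at week 15 to 14.4 ± 2.9 CPM at week 23 (SD, n = 8), and CD79A from 2.92 ± 1.34 to 7.81 ± 4.60 CPM. MZB1 rose from 2.65 ± 1.55 to 5.89 ± 3.72 CPM, CD79B from 1.38 ± 0.42 to 3.41 ± 1.58 CPM and MS4A1 from 0.693 ± 0.260 to 2.13 ± 1.27 CPM. TNFRSF17 went from 0.0631 ± 0.0735 to 0.233 ± 0.079 CPM. POU2AF1, MZB1 and TNFRSF17 were higher in 8 of 8 animals (p = 0.00781 each, the smallest this two-sided exact permutation test of sign changes can give), CD79A, CD79B and MS4A1 in 7 of 8 (exact permutation p = 0.0156 each), with an adjusted p of 0.0182 for all 6 over the 7 genes. TNFSF13B was higher in 4 of 8 animals (exact permutation p = 0.492), at 2.13 ± 1.35 and 2.18 ± 2.26 CPM. This test was chosen after the levels were seen. The labels of week 23, except that of M1001, end in a T that no earlier label has and that they do not explain. The highest summed level of skeletal muscle markers in placebo animals was 10390 CPM at week 15 and 330.8 CPM at week 23. Whether the sampling differed was not tested, and a difference in sampling could not be told apart from time. Over the 9 placebo animals of each week, the median summed level went from 82.97 CPM at week 15 to 122.9 CPM at week 23 for T cell markers, from 25.5 to 36.0 CPM for cytotoxic and NK markers and from 26.0 to 37.4 CPM for neutrophil markers, while that of myeloid markers went from 422.7 to 384.3 CPM and that of plasmacytoid dendritic cell markers from 38.0 to 29.8 CPM. Their part in the rise was not tested.

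F1020, which died after the biopsy of week 15, had a second late biopsy, labelled only as taken at death and used in no comparison. Scaled by library total, MZB1 was at 38.3 CPM there (527 reads), CD79A at 15.2 CPM, CD79B at 6.25 CPM and POU2AF1 at 23.9 CPM, while TNFSF13B was at 4.29 CPM, against 13.4 CPM at week 15. In wIFN-α animal M1006, which the study removed early for ill health and whose biopsy of week 2 was in no comparison, TNFSF13B was at 6.02 CPM.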
